A study of Mus musculus with 12 samples.

Results

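The genes of oxidative phosphorylation were followed in whole bone marrow of 4 mouse genotypes. Members were taken by symbol from the gene table. Symbols starting with Nduf stood for complex I, Sdha to Sdhd for complex II, those starting with Uqcr for complex III, those starting with Cox4 to Cox8 for complex IV and those starting with Atp5 for complex V. Cox6a2, the heart and skeletal muscle form of a complex IV subunit, was left out. The choice gave 84 genes of the 12199 in the table: 43 for complex I, 4 for complex II, 8 for complex III, 12 for complex IV and 17 for complex V. Of the 43 complex I genes, 7 (Ndufaf1 to Ndufaf7) are assembly factors and not subunits. All 84 passed the filter on low counts.

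RNA was sequenced from bone marrow cells of C57BL/6 mice. WT mice were compared with DF mice (Dnmt3aFlox/+, MxCre and Flt3ITD/+), TF mice (Tet2+/- and Flt3ITD/+) and TFD mice (Tet2+/-, Flt3ITD/+, Dnmt3aFlox/+ and MxCre). Counts were available for 3 WT, 3 DF, 3 TF and 2 TFD libraries, and a further TFD sample was not analysed here. MxCre is driven by an interferon-responsive promoter, so that the floxed Dnmt3a allele is deleted after poly(I:C) in blood cells and in other responsive tissues. By the study's methods poly(I:C) was given at 8 to 10 weeks of age to all genotypes, WT included, and the marrow was taken 8 to 9 weeks later. All mutant groups carried Flt3ITD/+, so no comparison with WT separates the Dnmt3a or Tet2 allele from it. Globin transcripts were depleted before library preparation. The total was 8274153 to 15900904 counts per library, and the 84 genes took 0.531% to 0.701% of them. Single member counts ran from 22 (Cox6b2) to 9416 (Atp5b) per library.

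As background, complex I takes electrons from NADH and complex II from succinate. Both pass them to ubiquinone, complex III carries them on to cytochrome c, and complex IV gives them to oxygen. Complexes I, III and IV pump protons, and complex V (ATP synthase) lets the protons back to make ATP. The catalytic subunits of complex IV, cytochrome b of complex III and several subunits of complexes I and V are encoded in mitochondrial DNA. The table holds 0 genes of the mitochondrial chromosome, so only the nuclear-encoded share of each complex was seen. Blood stem cells rely comparatively little on respiration, and differentiating and leukemic myeloid cells often rely on it more.

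Compared per length, the members were among the more abundant transcripts of the marrow. In WT libraries the median level on the log2 scale of CPM per kilobase of exon was 5.34 for complex I, 6.00 for complex II, 6.29 for complex III, 6.86 for complex IV and 6.76 for complex V, against 3.43 for all genes in the table. The highest level belonged to Atp5b, the catalytic beta subunit of ATP synthase, with 8.27 ± 0.19 (SD, n = 3). The highest of complex IV was Cox6c, a small subunit, with 7.71 ± 0.27 (SD, n = 3). The highest of complex III was Uqcrh, the hinge protein, with 7.68 ± 0.13 (SD, n = 3), and the highest of complex I by symbol was Ndufa4 with 7.51 ± 0.15 (SD, n = 3). Cox6c, Uqcrh and Ndufa4 lay within their spread of each other. Ndufa4 carries a complex I name but is now counted as a complex IV subunit. The lowest of complexes I, V and IV were Ndufaf5 with 1.40 ± 0.16 (SD, n = 3), Atp5s with 1.63 ± 0.42 (SD, n = 3) and Cox6b2, a form known from testis, with 2.50 ± 0.41 (SD, n = 3).

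Promoter sequence was matched for 72 of the 84 members in RefSeq's table on GRCm38.p6. The 5 stretches below are the 150 bases directly upstream of the annotated start, 5′ to 3′ on the gene's own strand. They are shown because Cox7a2l and Atp5sl were higher than WT in all 3 mutant genotypes, Atp5g2 had the highest fold change of any member in TF, Cox6a1 carries the letters of an NRF1 and an ETS site together, and Ndufaf1 was lower than WT in DF and TF. Capitals mark the NRF1 core (GCGCA, any base, then GCGC) and the ETS core (CCGGAAG) on either strand.
Cox7a2l (chr17:83514334-83514483, minus strand): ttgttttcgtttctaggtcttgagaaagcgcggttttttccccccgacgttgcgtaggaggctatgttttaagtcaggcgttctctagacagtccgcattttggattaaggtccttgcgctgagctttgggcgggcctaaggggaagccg
Atp5sl (chr7:25619264-25619413, plus strand): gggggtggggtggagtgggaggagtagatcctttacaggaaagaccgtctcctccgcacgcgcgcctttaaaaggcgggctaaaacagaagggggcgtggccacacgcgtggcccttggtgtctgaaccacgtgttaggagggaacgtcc
Atp5g2 (chr15:102671048-102671197, minus strand): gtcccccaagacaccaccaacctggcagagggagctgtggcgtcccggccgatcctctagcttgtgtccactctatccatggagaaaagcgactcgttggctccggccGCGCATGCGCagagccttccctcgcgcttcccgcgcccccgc
Cox6a1 (chr5:115348959-115349108, minus strand): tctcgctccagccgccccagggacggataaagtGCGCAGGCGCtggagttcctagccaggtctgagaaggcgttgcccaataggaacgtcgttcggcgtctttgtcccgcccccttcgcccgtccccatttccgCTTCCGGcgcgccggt
Ndufaf1 (chr2:119662835-119662984, minus strand): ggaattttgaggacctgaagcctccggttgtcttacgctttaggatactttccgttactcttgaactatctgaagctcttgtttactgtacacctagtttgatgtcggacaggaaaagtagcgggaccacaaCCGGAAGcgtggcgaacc

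In all, 5 short letter runs were searched on both strands in 300 bases, from 250 before to 50 after each start. The core bound by nuclear respiratory factor 1 (NRF1), read as above, was found in 17 of the 72 member promoters (23.6%) and in 10.9% of all 9709 promoters matched to tested genes. AAGATGGC, the YY1 core, was found in 10 (13.9%) against 4.97%. CCGGAAG, the ETS core bound by GABP, was found in 16 (22.2%) against 19.3%, CACGTG in 7 (9.72%) against 10.4%, and TATAAA in 5 (6.94%) against 7.07%. No run holds another, and CACGTG reads the same on both strands. The window of Cox7a2l held none of the 5. A match of letters is a description of the window and not a binding site.

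DF marrow had higher levels of many members than WT marrow (the plot of member fold changes). Of the 84 genes, 28 were higher (33.3%) and 3 lower in DF at an adjusted p under 0.05, beside a background of 21.0% higher and 16.6% lower among the 12175 genes tested. The median log2 fold change was 0.27 over the members and 0.05 over all genes tested, and 71 of the 84 values were positive. By complex, 14 of 43 genes were higher in complex I, 1 of 4 in complex II, 2 of 8 in complex III, 5 of 12 in complex IV and 6 of 17 in complex V. The median log2 fold changes were 0.26, 0.15, 0.22, 0.38 and 0.20 in that order. In 36 members every DF library lay above every WT library, and over all genes this held for 28.8%. The count rested on single libraries. Either direction together, 31 members were called with all libraries, 16 without WT replicate 1, 18 without WT replicate 2, 20 without WT replicate 3 and 14 without DF replicate 1 or DF replicate 2. In these 5 fits 3415 to 3951 of the 12175 genes were called. Scaled by library totals, 14 members were higher and 4 lower, beside 15.8% and 21.5% of all genes. After removal of the trend with gene length (loess, below) 13 were higher and 4 lower, beside 21.7% and 14.3%. The members' median was then 0.08.

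TF marrow showed 18 members higher (21.4%) and 1 lower than WT, beside a background of 19.0% and 15.6%. The median log2 fold change of the members was 0.26 against 0.02 for all genes tested, and 70 of 84 values were positive. In complex I 6 genes were higher, in complex II 2, in complex III 0, in complex IV 5 and in complex V 5. At an unadjusted p under 0.05, edgeR gave 36 members in either direction in TF and 40 in DF, beside 45.3% and 47.3% of all genes. Every TF library lay above every WT library for 45 members, against 26.1% of all genes. The 19 calls fell to 9 without WT replicate 2 and to 10 without TF replicate 1, and rose to 30 without either TFD replicate, although the TFD libraries enter this comparison only through the shared fit. Of all genes, 25.2% were called without WT replicate 2, 23.4% without TF replicate 1, and 37.1% and 37.0% without TFD replicate 1 and 2. In a fit that removed the trend with gene length (loess, below) the members' median was 0.01. That fit left 9 members higher and 6 lower, beside 17.5% and 15.7% of all genes. The DF and TF comparisons share the WT libraries.

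**Figure D1:**
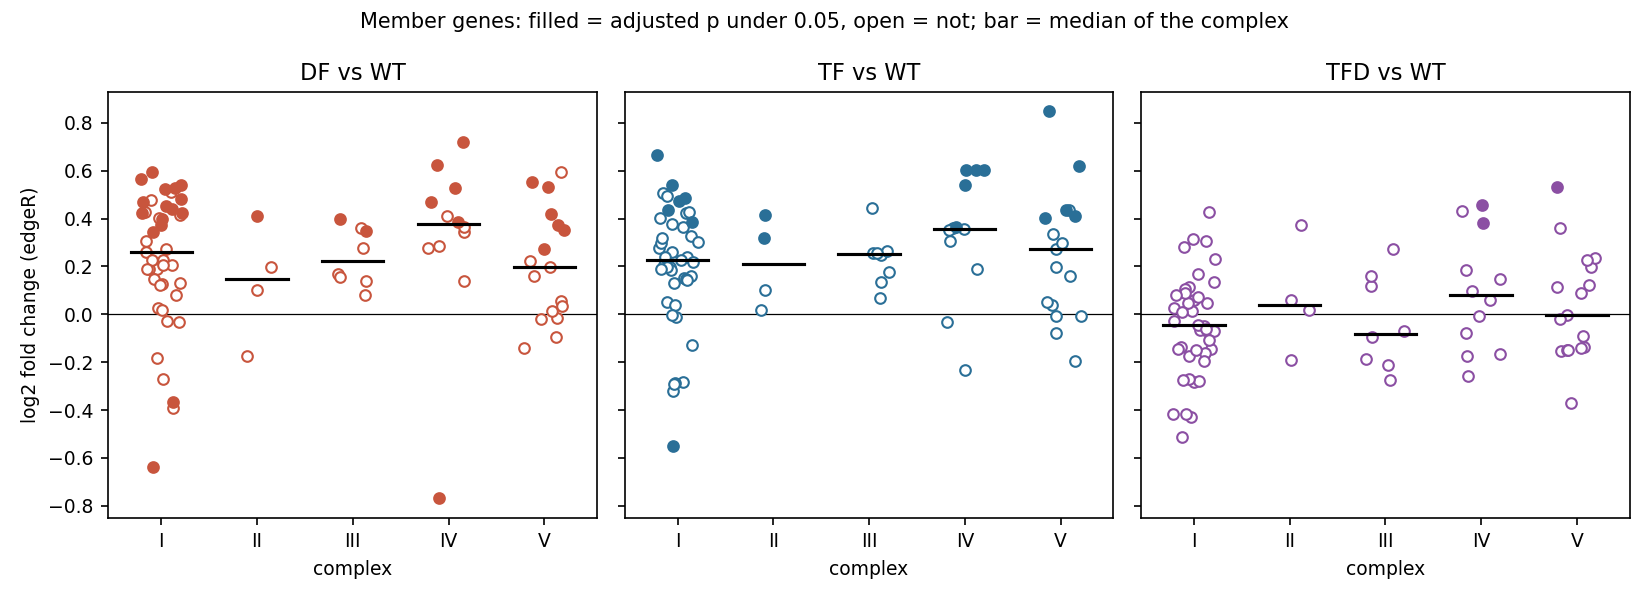
Log2 fold change of each of the 84 member genes (points) against WT in DF, TF and TFD, by complex I to V. Filled points passed an adjusted p under 0.05 in edgeR, open points did not, and bars are medians of the complex. Filled points lie mostly above 0 in DF and TF, with 28 and 18 higher, and only 3 are filled in TFD.

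TFD marrow, with both alleles and Flt3ITD/+, had 3 members higher and 0 lower than WT, beside a background of 14.7% higher and 11.6% lower. The median log2 fold change was -0.00, with 41 positive values of 84. The 3 genes were Cox4i1, Cox7a2l and Atp5sl, all of which were also higher in DF and TF. At an unadjusted p under 0.05 edgeR gave 11 members in either direction, beside 38.0% of all genes. The complex medians were -0.05, 0.04, -0.08, 0.08 and -0.00 from I to V. Calls in TFD changed with single libraries: 5 members were called without TFD replicate 1 (1 higher and 4 lower) and 5 without TFD replicate 2 (5 higher). Either direction together, these fits called 19.4% and 19.7% of all genes. Without WT replicate 1 there were 6 (2 higher and 4 lower), without WT replicate 2 there were 2, and without TF replicate 3 there were 5 (4 higher and 1 lower). Those 3 fits called 23.3%, 20.3% and 28.6% of all genes.

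Cox4i1 encodes the ubiquitous subunit 4 of complex IV, an early piece in its assembly (chr8:120668225-120674209, mm10, plus strand). Its level in log2 CPM was 7.15, 6.98 and 7.15 in WT, 7.69, 7.50 and 7.50 in DF, 7.59, 7.66 and 7.65 in TF, and 7.63 and 7.46 in TFD. Every mutant library lay above every WT library. The log2 fold change against WT was 0.47 ± 0.10 (SE) for DF, 0.54 ± 0.10 for TF and 0.46 ± 0.11 for TFD, with adjusted p-values of 0.0026, 0.0013 and 0.0079. The DF and TF calls held in each of 19 alternative fits, and the TFD call was lost in 1 of them, without TFD replicate 1. GENCODE places exons of the opposite strand over 19.8% of its bases, and whether counting used strand is not given in the sources used here.

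Cox7a2l, of complex IV by symbol, lies at chr17:83501917-83514333 (mm10, minus strand). Its log2 CPM was 6.61, 6.55 and 6.64 in WT, 7.04, 6.87 and 7.04 in DF, 7.30, 7.17 and 7.14 in TF, and 6.98 and 6.99 in TFD. The mutant libraries again lay above all WT libraries, and every TF library above every DF library. The log2 fold change against WT was 0.39 ± 0.09 for DF, 0.60 ± 0.09 for TF and 0.38 ± 0.10 for TFD, with adjusted p-values of 0.00582, 0.000404 and 0.0148. The direct difference of DF and TF did not pass (-0.22 ± 0.09, adjusted p = 0.21). In TFD the call was lost without TFD replicate 1, without TFD replicate 2 and in a fit of TFD and WT alone.

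Atp5sl is listed by RefSeq as Dmac2 and is known as an assembly factor for the membrane arm of complex I, so its Atp5 name places it in complex V by symbol only (chr7:25619414-25625550, mm10, plus strand). Its log2 CPM was 3.52, 3.35 and 3.82 in WT, 4.11, 4.09 and 4.19 in DF, 4.13, 4.31 and 4.14 in TF, and 4.11 and 4.11 in TFD. No mutant library overlapped WT. The fold change in linear terms was 1.47 in DF, 1.54 in TF and 1.45 in TFD, with adjusted p = 0.00768, 0.0044 and 0.0216. The TFD call was lost in 5 of 19 alternative fits, those without WT replicate 1, WT replicate 2, TFD replicate 1 or TFD replicate 2 and the fit of TFD and WT alone.

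**Figure D2:**
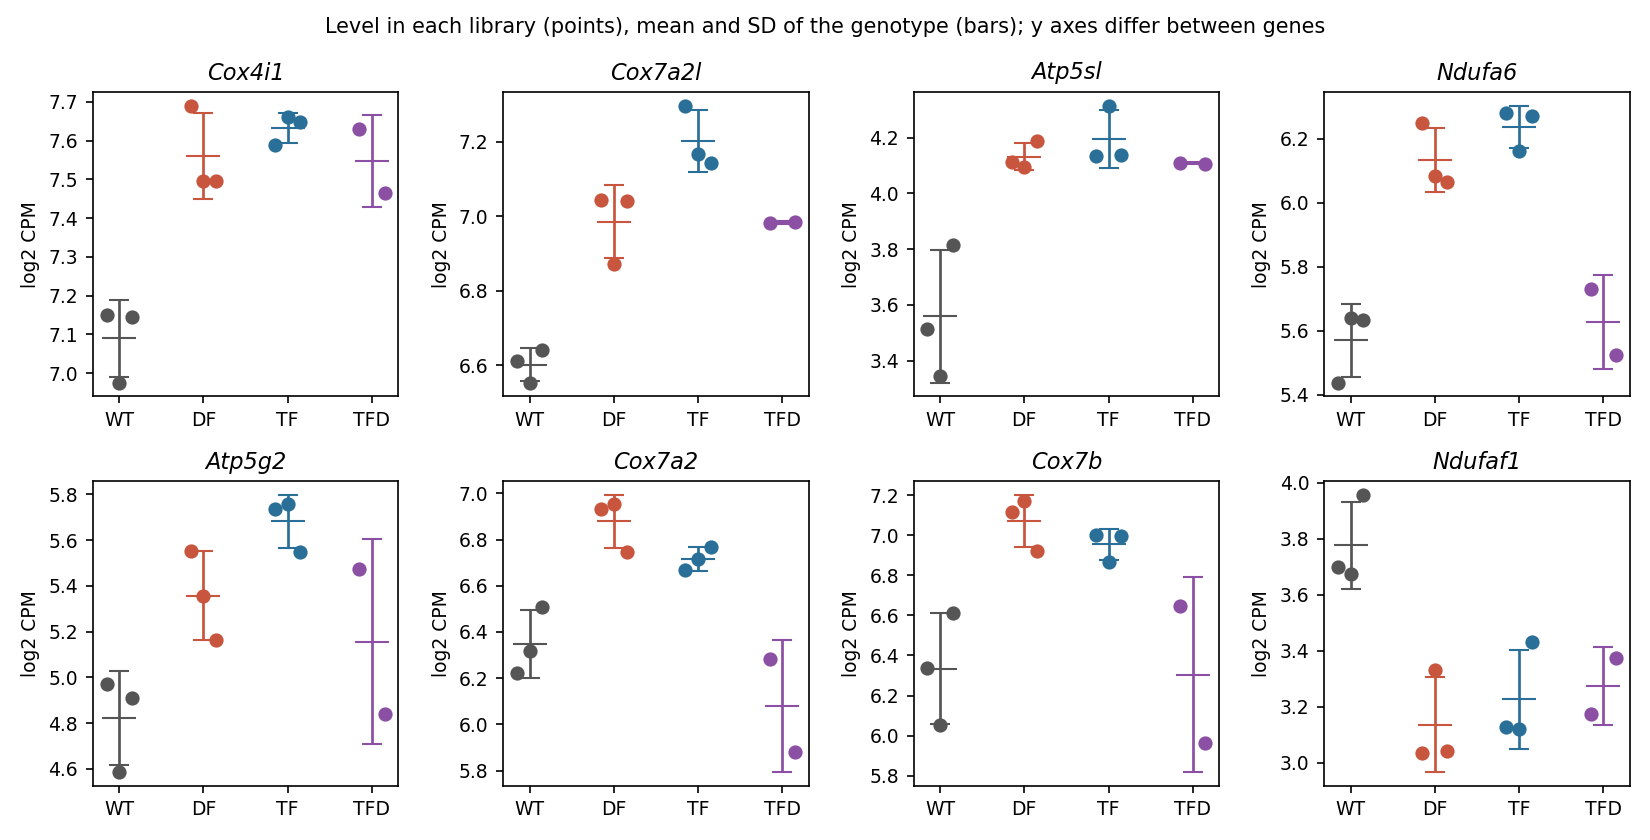
Level of 8 member genes in each library (points, log2 CPM on y axes that differ between genes) by genotype, with mean and SD as bars. Cox4i1, Cox7a2l and Atp5sl lie above WT in all 8 mutant libraries, Ndufa6, Cox7a2 and Cox7b are higher in DF and TF with TFD near or below WT, Atp5g2 has its highest mean in TF, and Ndufaf1 lies below WT in all 8 mutant libraries.

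Complex I is given here by role, and no difference between roles was tested. In its catalytic core, the iron-sulfur subunit Ndufs8 rose by 0.47 ± 0.14 in DF and 0.54 ± 0.14 in TF on the log2 scale, with adjusted p-values of 0.0222 and 0.0123. These calls were lost in 6 and 1 of 19 alternative fits. Ndufv1, which holds the flavin that accepts electrons from NADH, had the smallest range of any member, 0.14 log2 units over the 11 libraries, and its fold change was -0.03 ± 0.08 in DF and 0.04 ± 0.08 in TF. Ndufs3 had -0.03 ± 0.12 and -0.01 ± 0.12, Ndufs7 0.12 ± 0.13 and 0.14 ± 0.13, and Ndufv2 0.08 ± 0.11 and -0.00 ± 0.11. Ndufs1, the largest iron-sulfur subunit, went the other way and fell by 0.37 ± 0.13 in DF (adjusted p = 0.0389), with 6.62, 7.04 and 7.02 log2 CPM in WT and 6.60, 6.56 and 6.46 in DF. That call was lost in 8 of 19 alternative fits, among them without WT replicate 2 or 3, any DF replicate or TF replicate 1.

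Accessory subunits of complex I gave its largest rises. Ndufa6, a subunit of the LYR family that anchors an acyl carrier protein, had 5.44, 5.64 and 5.63 log2 CPM in WT, 6.25, 6.09 and 6.07 in DF, 6.28, 6.16 and 6.27 in TF, and 5.73 and 5.52 in TFD. DF and TF lay clear of WT, and the TFD libraries lay on either side of the highest WT library. The log2 fold change was 0.56 ± 0.10 for DF, 0.67 ± 0.10 for TF and 0.06 ± 0.12 for TFD, with adjusted p-values of 0.00118, 0.000484 and 0.746. Ndufb6, of the membrane arm, had the highest fold change of complex I in DF (0.59 ± 0.15, adjusted p = 0.0073) and missed the threshold in TF (0.40 ± 0.15, adjusted p = 0.0516). Opposite-strand exons cover 34.6% of Ndufb6. Ndufv3 showed the largest DF minus TF difference of complex I (0.33 ± 0.15, adjusted p = 0.239). Over the 36 subunits of complex I, 14 were higher and 1 lower in DF, beside 21.0% and 16.6% of all genes, and 6 higher and 0 lower in TF, beside 19.0% and 15.6%.

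Of the 7 assembly factors, edgeR called 0 higher in any mutant genotype, beside 14.7% to 21.0% of all genes. In either direction 2 in DF, 1 in TF and 3 in TFD had an unadjusted p under 0.05, which 47.3%, 45.3% and 38.0% of all genes had. Ndufaf1, which acts in the intermediate assembly of the membrane arm, was the lowest complex I gene in every comparison with WT. Its log2 CPM was 3.70, 3.67 and 3.96 in WT, 3.04, 3.33 and 3.04 in DF, 3.13, 3.12 and 3.43 in TF, and 3.17 and 3.37 in TFD. All mutant libraries lay below all WT libraries. It fell by 0.64 ± 0.16 in DF and by 0.55 ± 0.16 in TF, with adjusted p-values of 0.00817 and 0.0187. For TFD the log2 fold change was -0.51 ± 0.18, which did not pass (adjusted p = 0.053). The DF call held in each of 19 alternative fits and the TF call in 16. It was lost without WT replicate 3, TF replicate 1 or TF replicate 2. Ndufaf7, a methyltransferase of complex I assembly, was the highest complex I gene in TFD with 0.43 ± 0.15 (adjusted p = 0.0516).

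Complex II oxidises succinate and is also an enzyme of the citric acid cycle. Sdhc, a membrane anchor, was higher in DF (0.41 ± 0.12, adjusted p = 0.0162) and TF (0.42 ± 0.12, adjusted p = 0.0174), and TFD gave 0.37 ± 0.13 (adjusted p = 0.0524). The DF call was lost with library totals and without WT replicate 2 or DF replicate 1, and the TF call after loess on gene length and without WT replicate 2, TF replicate 1 or TF replicate 2. Its log2 CPM was 5.62, 5.27 and 5.61 in WT against 5.75 to 6.01 in the 8 mutant libraries, with no overlap. Sdhb, the iron-sulfur subunit, was higher in TF (0.32 ± 0.11, adjusted p = 0.034), a call lost in 7 of 19 alternative fits, including loess on gene length, the replicate block and those without any WT replicate in turn, TF replicate 1 or TF replicate 3. In DF it had 0.20 ± 0.11 (adjusted p = 0.16). Sdha, which carries the flavin and the succinate site, had -0.18 ± 0.10 in DF and 0.02 ± 0.10 in TF, and Sdhd, the other anchor, had 0.10 ± 0.10 in both.

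No gene of complex III, a set of 8, was called in TF, beside 19.0% of all genes higher and 15.6% lower. Uqcrb and Uqcrq, small subunits near the quinone site, were higher in DF, by 0.35 ± 0.11 (adjusted p = 0.0294) and 0.40 ± 0.13 (adjusted p = 0.0249). Both calls were lost in 7 of 19 alternative fits, including those without WT replicate 1 or 2 and without DF replicate 1 or 2. The catalytic Rieske protein Uqcrfs1 had 0.15 ± 0.10 in DF and 0.26 ± 0.10 in TF (adjusted p = 0.071). The core proteins Uqcrc1 and Uqcrc2 had 0.36 ± 0.15 and 0.08 ± 0.11 in DF. Uqcr10, a single-helix subunit, was highest of the complex in TF (0.44 ± 0.17, adjusted p = 0.0541) and lowest in TFD (-0.27 ± 0.19, adjusted p = 0.308).

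Complex IV had the highest median fold change in both DF and TF. Cox7b, a small X-linked subunit, had 6.34, 6.05 and 6.61 log2 CPM in WT, 7.12, 7.17 and 6.92 in DF, 7.00, 6.86 and 7.00 in TF, and 6.65 and 5.96 in TFD. DF and TF did not overlap WT, while the TFD libraries lay just above and just below the whole WT range. Its log2 fold change was 0.72 ± 0.17 for DF and 0.60 ± 0.17 for TF, with adjusted p-values of 0.00568 and 0.0163. The TF call was lost without WT replicate 2 and without TF replicate 1. Cox7a2, the form of subunit 7a found in most tissues, had 6.22, 6.32 and 6.51 in WT, 6.93, 6.95 and 6.75 in DF, 6.67, 6.72 and 6.77 in TF, and 6.28 and 5.88 in TFD. It was higher in DF (0.53 ± 0.12, adjusted p = 0.00465) and TF (0.36 ± 0.12, adjusted p = 0.0336). The TF call was lost in 6 of 19 alternative fits, namely loess on gene length and those without WT replicate 1 or 2 or any TF replicate. Cox8a, a small membrane subunit, rose by 0.63 ± 0.21 in DF and 0.60 ± 0.21 in TF, with adjusted p-values of 0.0349 and 0.0437, but these calls were lost in 7 and 9 of 19 alternative fits. The subunits Cox5a and Cox5b did not pass in DF (0.14 ± 0.13 and 0.34 ± 0.14) or in TF (-0.03 ± 0.13 and 0.36 ± 0.14). Opposite-strand exons cover 38.9% of Cox5a.

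Of the paralogous pairs looked for, Ndufa4l2, Cox4i2, Cox7a1, Cox8b and Cox8c are not in the table. Cox6b2 was present at a low level and differed from its ubiquitous counterpart Cox6b1. Cox6b2 had 1.36, 1.95 and 2.14 log2 CPM in WT, 0.82, 1.18 and 1.20 in DF, 1.34, 1.86 and 1.60 in TF, and 2.35 and 2.19 in TFD. DF lay below and TFD above every WT library. Cox6b2 fell by 0.77 ± 0.27 in DF (adjusted p = 0.0416, lost in 6 of 19 alternative fits), and Cox6b1 had 0.41 ± 0.16 there (adjusted p = 0.0575). The range of Cox6b2 over libraries, 1.53 log2 units, was the widest of any member.

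In complex V, Atp5g2 is 1 of 3 genes that encode the same mature subunit c, of the proton-turning ring. Its log2 CPM was 4.97, 4.59 and 4.91 in WT, 5.55, 5.35 and 5.16 in DF, 5.74, 5.76 and 5.55 in TF, and 5.47 and 4.84 in TFD. TF lay above WT without overlap, and the TFD libraries were split. The log2 fold change was 0.85 ± 0.17 for TF, the highest of all 84 members there (adjusted p = 0.00206), and 0.53 ± 0.17 for DF (adjusted p = 0.0244). The DF call was lost in 6 of 19 alternative fits, including those without WT replicate 2 or 3 and without DF replicate 1 or 2. The other genes for subunit c did not pass: Atp5g1 had -0.02 ± 0.24 in DF and -0.08 ± 0.24 in TF, and Atp5g3 had -0.14 ± 0.12 and -0.19 ± 0.12. Of the catalytic head, the gamma subunit Atp5c1 rose by 0.35 ± 0.09 in DF and 0.41 ± 0.09 in TF, with adjusted p-values of 0.0101 and 0.00446. The DF call was lost without WT replicate 1 (adjusted p = 0.0658). The alpha subunit Atp5a1 had 0.20 ± 0.14 and 0.27 ± 0.14, and the beta subunit Atp5b -0.01 ± 0.14 and 0.04 ± 0.14, with no call. Atp5k, subunit e of the membrane part, was the highest complex V gene in DF at 0.60 ± 0.23 (adjusted p = 0.0583).

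Over the 20 core subunits chosen by function, 5 were higher and 1 lower in DF, 6 higher and 0 lower in TF, and 1 higher in TFD. Of all genes, 21.0%, 19.0% and 14.7% were higher in DF, TF and TFD. Over the 64 other members, 23 were higher in DF and 12 in TF. The 3 X-linked members (Ndufa1, Ndufb11 and Cox7b, of which the first 2 are named after their values were seen) were higher in both DF and TF, and 0 of them were called in TFD. The Ndufa1 calls were lost in 10 and 12 of 19 alternative fits and those of Ndufb11 in 3 and 1. An added term for the 3 libraries with over 10000 Xist reads (WT replicate 3, TF replicate 3 and TFD replicate 2) left 23 members higher and 1 lower in DF, 21 and 1 in TF and 5 and 1 in TFD. With that term, all genes gave 19.2% higher and 15.2% lower for DF, 20.3% and 17.5% for TF, and 16.2% and 13.6% for TFD.

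Between DF and TF, edgeR called 0 of 84 members in either direction, beside 1.67% higher and 4.27% lower over all genes, and 2 had an unadjusted p under 0.05, beside 19.0% of all genes. DESeq2 also called 0 members, beside 2.70% of all genes higher and 6.10% lower. The median difference was 0.00 with a range of -0.54 (Cox6b2) to 0.33 (Ndufv3), and the standard errors ran from 0.08 to 0.27. That no member passed does not show equal levels.

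Most members had lower values in TFD than in DF and TF, but by edgeR none passed the adjusted threshold. The fitted median log2 fold change was -0.23 against DF, -0.25 against TF and -0.27 against the mean of both, where 75 of the 84 values were negative. Over all genes tested these medians were -0.01, 0.00 and -0.00. Without TFD replicate 2 the members' medians were -0.11, -0.10 and -0.10, and after loess on gene length -0.11, -0.05 and -0.08. By edgeR 0 members were called in each, beside 0 genes called higher and 0 lower over all genes against DF, 0.00821% in each direction against TF, and 0.0164% higher against the mean. At an unadjusted p under 0.05, edgeR gave 27, 30 and 30 members, beside 14.2%, 8.77% and 8.18% of all genes. DESeq2 called 6 members against DF (1 higher and 5 lower), 4 against TF (0 higher and 4 lower) and 5 against the mean (0 higher and 5 lower). Over all genes DESeq2 called 1.27%, 0.181% and 0.131% higher and 0.846%, 0.895% and 0.411% lower in that order. Both TFD libraries lay below all 6 DF and TF libraries for 23 members, against 4.51% of all genes. The comparisons share the TFD libraries.

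Cox7a2 gave the lowest value against the mean of DF and TF, -0.70 ± 0.13 (edgeR adjusted p = 0.187, DESeq2 adjusted p = 0.000592), and its 6.28 and 5.88 in TFD stood against 6.67 to 6.95 in DF and TF. Cox7b gave -0.67 ± 0.18 and Ndufa6 -0.56 ± 0.11. Uqcr10 gave -0.63 ± 0.17. Cox6b2 went the other way with 0.93 ± 0.25 (edgeR adjusted p = 0.345). In TFD replicates 1 and 2, Cox7b stood at 6.65 and 5.96 log2 CPM, Ndufa6 at 5.73 and 5.52, and Uqcr10 at 5.12 and 4.37. The lower level of each of these 3 genes thus came from replicate 2. Cox4i1, Cox7a2l and Atp5sl were close to the average of DF and TF, at -0.05 ± 0.10, -0.11 ± 0.09 and -0.06 ± 0.13. By complex, the medians against the mean were -0.28 for I, -0.12 for II, -0.28 for III, -0.35 for IV and -0.15 for V. Whether the complexes differ was not tested. Relative to each gene's mean over the 11 libraries, TFD replicate 1 stood at -0.03, -0.05, -0.07, 0.04 and -0.01 for I to V.

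The 2 TFD libraries were not alike. Each gene was set relative to its mean over the 11 libraries, and the median of the members was then -0.03 in TFD replicate 1 and -0.24 in TFD replicate 2. In the other genotypes it was -0.18, -0.19 and -0.06 in WT, 0.21, 0.18 and -0.05 in DF, and 0.08, 0.14 and 0.12 in TF. DF replicate 3 thus lay nearer to WT replicate 3 than to the other DF libraries, and TFD replicate 2 below all others. Cell markers differed between the TFD libraries too: late neutrophil markers (11 genes) summed to 46828 CPM in TFD replicate 1 and 23368 in TFD replicate 2, and primary granule markers (6 genes) to 5820 and 3983, and their part in the members' levels was not tested. By complex, TFD replicate 2 stood at -0.31 for I, -0.28 for III and -0.36 for IV, but at -0.06 for both II and V. With TFD replicate 2 as the lone TFD library, taken to vary like the other genotypes, edgeR called 0 members higher and 14 lower against DF, beside 1.95% of all genes lower, and 5 lower against TF (0.493%). With TFD replicate 1 alone the members' median log2 fold change was -0.11 against DF and -0.10 against TF. TFD replicate 2 is also the TFD library with over 10000 Xist reads, so within TFD its replicate and that split cannot be told apart.

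**Figure D3:**
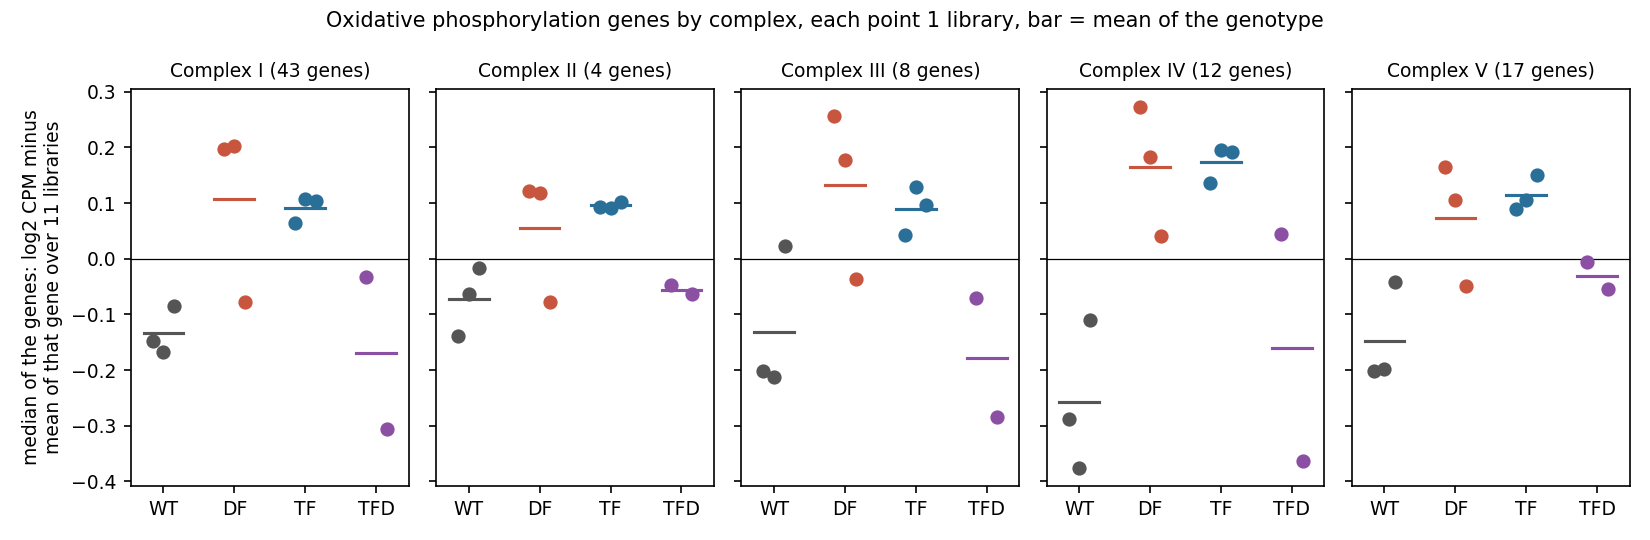
Median over the genes of each complex (log2 CPM minus that gene's mean over 11 libraries) in each library, by genotype, with the genotype mean as a bar. WT lies mostly below 0, TF above 0 in all 5 complexes, DF is spread by its replicate 3, and the 2 TFD libraries part most in complexes I, III and IV.

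The members are short genes. Their median exon length was 761 bases (292 to 3632), against 2890 for all genes, and 74 of the 84 fell into the shortest of 4 equal groups by length (up to 1816 bases). Fold changes of all genes also moved with length. From the shortest to the longest group the median log2 fold change over all genes tested was 0.24, 0.10, 0.01 and -0.10 in DF versus WT, 0.19, 0.05, -0.02 and -0.14 in TF versus WT, 0.07, 0.03, -0.00 and -0.07 in TFD versus WT, and -0.12, -0.03, 0.02 and 0.07 for TFD against the DF and TF average. The 74 members in the shortest group had medians of 0.28, 0.26, -0.00 and -0.28 in these 4 comparisons. Of them 27 (36.5%) were higher in DF, beside 27.6% of all genes of that group, and 17 (23.0%) in TF, beside 25.2%. Only 2.70% were lower in DF and 1.35% in TF, beside 8.93% and 7.45% of that group.

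The length trend was also present library by library. The slope of a gene's deviation on log2 length was 0.082, 0.084 and 0.034 in WT, -0.078, -0.054 and -0.002 in DF, -0.037, -0.063 and -0.017 in TF, and -0.017 and 0.068 in TFD. The libraries in which short genes stood lowest, WT replicates 1 and 2 and TFD replicate 2, were also those with the lowest members. Taken relative to the median of the shortest length group in the same library, the members stood at -0.04, -0.02 and -0.00 in WT, 0.04, 0.05 and -0.06 in DF, 0.02, 0.03 and 0.06 in TF, and -0.06 and -0.12 in TFD.

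A fit that removed the length trend in each library (loess on log2 length) moved the members' median to 0.08 in DF, where all genes stood at 0.08, to 0.01 in TF (all genes -0.01) and to -0.04 in TFD (all genes 0.01). It left 13 members higher and 4 lower in DF, beside 21.7% and 14.3% of all genes, 9 higher and 6 lower in TF (17.5% and 15.7%), and 4 higher and 1 lower in TFD (15.2% and 12.1%). The 13 in DF were all among the 28 of the main test, and the 9 in TF among the 18. Atp5sl and Cox4i1 were higher in all 3 genotypes in this fit too, while Cox7a2l kept its call in TF and TFD and missed it in DF (adjusted p = 0.0523). Ndufaf1 was lower in all 3. Against the mean of DF and TF the TFD median became -0.08, with all genes at -0.01. The part of gene length itself, or of anything that follows it such as RNA quality, was not tested beyond this fit.

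**Figure D4:**
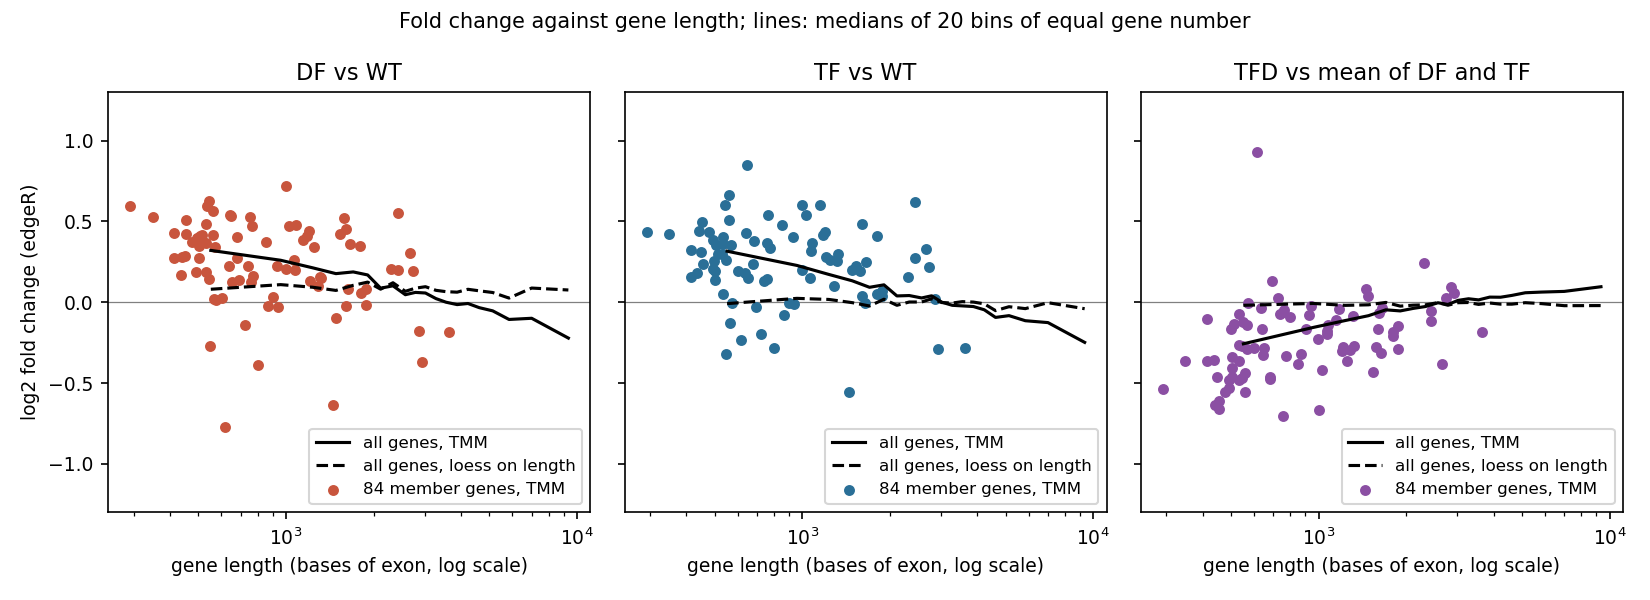
Log2 fold change (y) against exon length in bases (x, log scale) in 3 comparisons, with the 84 members as points and medians of 20 equal bins of all genes as lines, solid for TMM scaling and dashed after loess on length. The members sit at the short end, where the solid line is above 0 in DF and TF and below 0 for TFD against the DF and TF average.

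The other genes of the pathway were taken from lists chosen by function. Their counts stand beside all-gene shares of 21.0% higher and 16.6% lower for DF, 19.0% and 15.6% for TF, and 14.7% and 11.6% for TFD. Of 19 assembly factors of complex IV, 5 were higher and 1 lower in DF, 3 and 1 in TF, and 1 and 1 in TFD. After loess on gene length these counts were 3 and 3, 0 and 4, and 0 and 1. Sco2, a copper chaperone of complex IV, had the highest value (1.10 in DF, adjusted p = 0.041), and Cox11, another copper-delivery factor, the lowest (-0.70 in DF, adjusted p = 0.0073). Of 4 assembly factors of complex II, Sdhaf1 was higher in DF (0.96, adjusted p = 0.016) and Sdhaf2, which helps attach the flavin to Sdha, was lower in TF (-0.34, adjusted p = 0.02) and TFD (-0.38, adjusted p = 0.026). Of 7 complex I assembly genes without a Nduf symbol, 1 was higher in each genotype. Foxred1 had the highest value in DF (0.42, adjusted p = 0.0059) and TF (0.45, adjusted p = 0.0048). Of 7 complex III genes without a Uqcr symbol, the assembly factor Bcs1l had the highest value in DF (0.37, adjusted p = 0.12) and Uqcc3 in TF (0.42, adjusted p = 0.091), which did not pass, and the medians were 0.12, 0.13 and 0.05. Of 6 complex V genes without an Atp5 symbol, 2 were higher and 1 lower in DF, 1 and 0 in TF, and 0 and 1 in TFD. After loess these counts were 0 and 1 in each genotype. Atpif1, the inhibitor of ATP synthase, was lower in DF (-0.46, adjusted p = 0.021) and TFD (-0.64, adjusted p = 0.011). Of 10 genes for cytochrome c and ubiquinone synthesis, Cycs, which encodes cytochrome c, was higher in DF (0.47, adjusted p = 0.011) and Coq4 lower in TF (-0.69, adjusted p = 0.011).

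The same all-gene shares, 21.0%, 19.0% and 14.7% higher and 16.6%, 15.6% and 11.6% lower for DF, TF and TFD, apply to the lists upstream of the chain. There, 4 of 20 genes of the citric acid cycle and pyruvate dehydrogenase were higher and 2 lower in DF, 3 and 2 in TF, and 1 and 0 in TFD. Idh2, the mitochondrial isocitrate dehydrogenase, was higher in all 3 (0.90, 0.85 and 0.85). After loess on gene length the higher and lower counts of this list were 2 and 2, 3 and 2, and 1 and 1. Of 20 glycolysis genes 10 were higher and 2 lower in DF, 5 and 4 in TF, and 3 and 2 in TFD, with Pgam1 at 1.16 and Pfkm at -1.78 in DF. Of 19 regulators of mitochondrial biogenesis 1 was higher and 4 lower in DF, 1 and 2 in TF, and 0 and 1 in TFD. Esrra, a nuclear receptor that drives respiratory genes, was the highest in DF (0.62, adjusted p = 0.0038), and Pprc1, a coactivator of the PGC-1 family, the lowest (-0.64, adjusted p = 0.032). Esrra had 0.39 in TF (adjusted p = 0.046), a call lost after loess, where 0 regulators were higher and 3 lower in TF and 1 was higher and 2 lower in DF. Of 77 mitochondrial ribosomal proteins 10 were higher in DF, 5 in TF and 2 in TFD, and 0, 0 and 2 were lower, with medians of 0.19, 0.14 and -0.07. Cytosolic ribosomal proteins, also short, had 34, 64 and 3 of 77 higher and 1, 1 and 0 lower, with medians of 0.34, 0.57 and 0.10. After loess on length the medians of these ribosomal lists were 0.03, -0.04 and -0.10 for mitochondria and 0.14, 0.29 and 0.09 for cytosol. Higher and lower calls then numbered 7 and 4, 2 and 3, and 2 and 5 for mitochondria, and 11 and 1, 40 and 1, and 3 and 1 for cytosol.

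**Figure D5:**
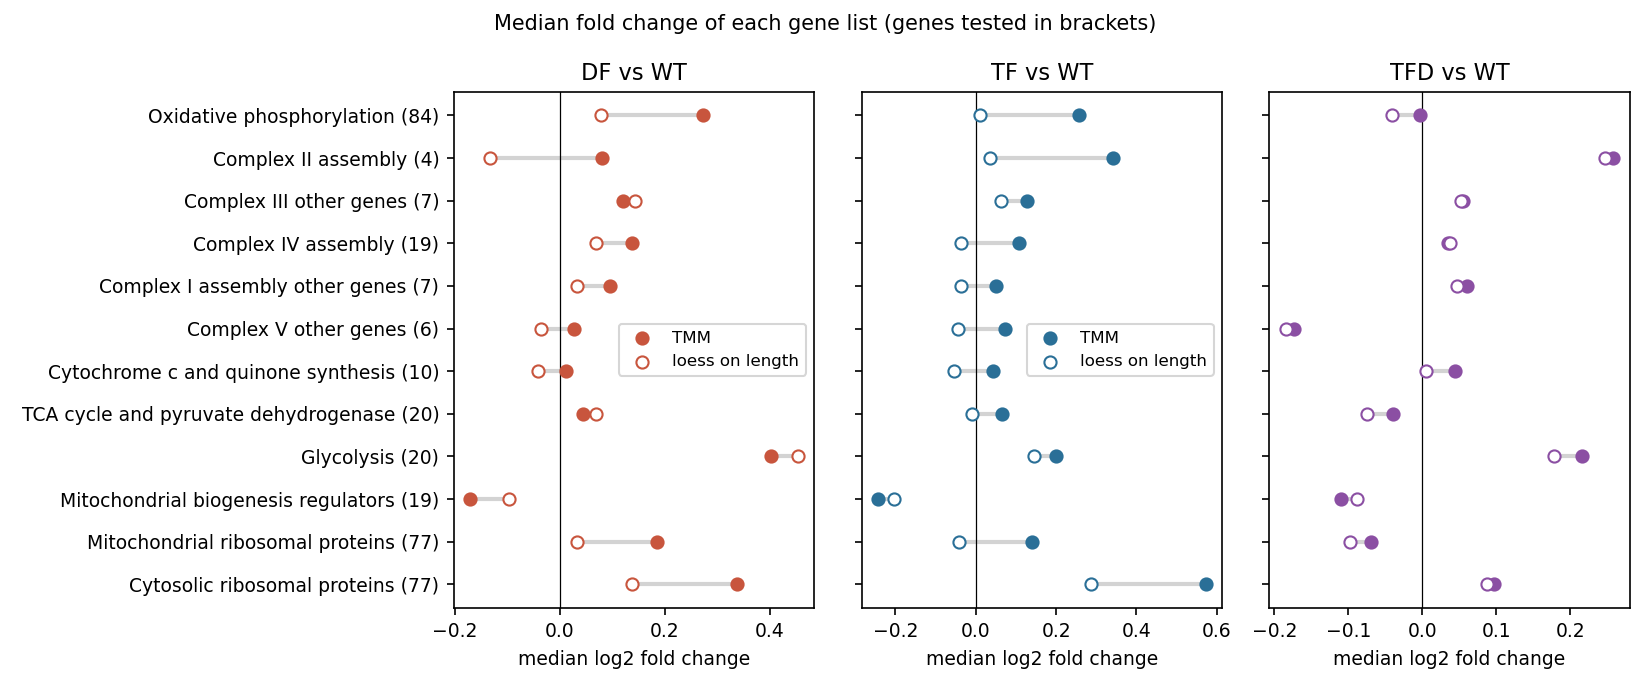
Median log2 fold change against WT of the 84 members and of 11 other gene lists, in DF, TF and TFD, with filled points for TMM scaling and open points after loess on gene length. After loess the members move to 0.08 in DF and 0.01 in TF, the cytosolic ribosomal proteins to 0.14 and 0.29, and glycolysis stands at 0.45 in DF.

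The marrow also differed in its cells, and in bulk RNA fewer cells of a type and less RNA per cell cannot be told apart. Summed over 12 B cell markers, all in the table, the level was 623 to 786 CPM in WT, 17.3 to 31.5 in DF, 29.9 to 132 in TF and 25.2 to 25.8 in TFD. Over 13 erythroid markers (5 of the 18 listed are not in the table) it was 2742 to 3460, 367 to 502, 789 to 2428 and 738 to 972 CPM. TF replicate 3 stood apart from the other TF libraries, with 132 CPM of B cell markers against 29.9 and 30.6, and 2428 CPM of erythroid markers against 789 and 1018. Without it, 14 members were higher and 2 lower in TF than in WT, beside 35.5% of all genes called in either direction, and the members' median was 0.26. Monocyte markers (10) went the other way, from 2356 to 2645 in WT to 8367 to 9409 in DF, 6750 to 9062 in TF and 7938 to 8649 in TFD. T and NK cell markers (12) summed to 121 to 142, 86.2 to 96.4, 75.3 to 119 and 56.1 to 83.1 CPM, and late neutrophil markers (11) to 52057 to 65579, 59007 to 83358, 37117 to 47639 and 23368 to 46828. Primary granule markers (6) ran at 3050 to 3203, 4792 to 6596, 2809 to 4576 and 3983 to 5820 CPM, progenitor markers (8) at 197 to 223, 336 to 366, 265 to 379 and 339 to 394, and proliferation markers (12) at 5650 to 5999, 4480 to 5333, 5026 to 5181 and 4476 to 4770. Single progenitor markers were mixed, with median log2 fold changes against WT of 0.42 in DF, -0.00 in TF and 0.33 in TFD. Cd34 was the highest in DF (1.96) and TF (1.86), and Flt3, a targeted gene, in TFD (1.94). Sox4 was the lowest in DF (-0.59), and Gata2 in TF (-1.35) and TFD (-0.54). The part of these marker shifts in the members' fold changes was not tested. The targeted genes gave no check of the labels, because a count over the whole gene still takes in the intact allele and exons. Against WT, Tet2 had a log2 fold change of 0.20 ± 0.16 in TF and 0.25 ± 0.17 in TFD and was higher in DF (0.49 ± 0.16). Dnmt3a had -0.15 ± 0.21 in DF and 0.29 ± 0.23 in TFD and was higher in TF (0.58 ± 0.20), and Flt3 was higher in all 3 (0.93, 1.38 and 1.94).

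Reads of some members could be split or shared with other genes. GENCODE lists opposite-strand exons over more than 10% of the bases of 13 members, and 2 members, Atp5f1 and Atp5j, share over 10% of their exon bases with another gene of the table (Wdr77 and Gabpa). A processed copy that bears the member's name is annotated for 5 members (Atp5c1, Atp5k, Atp5l, Ndufab1 and Uqcrh), and only uniquely mapped reads were counted. Their values are therefore less certain.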

How the data were processed

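Bone marrow RNA of 11 libraries was measured on a stranded total RNA kit after globin depletion. By the study's methods and the labels, the authors aligned reads to mm10 with STAR, kept unique reads, used featureCounts with refGene models and dropped genes of low CPM. Versions are not given in the sources used here. The authors deposited raw counts per gene, log2 CPM and gene length in 1 table. The log2 CPM values were matched by recomputing them from the counts, to within 5e-09.

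Counts were tested with edgeR 4.0.16 in R 4.3.3: TMM factors, genes over 0.5 CPM in more than 3 libraries (12175 tested, 24 removed), 1 mean per genotype, glmQLFit and glmQLFTest, and Benjamini-Hochberg adjustment over all genes. Calls needed an adjusted p under 0.05, and errors of fold changes are standard errors. All genotypes share the estimate of spread. Fold changes between groups and per-library log2 CPM (prior count 0.25) come from this fit. The labels do not say that libraries of a genotype came from separate mice in separate preparations, so p-values measure the spread between these samples.

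Alternatives were DESeq2 1.42.0, library totals, RLE factors, no filter, loess on gene length (span 0.3), only the genotypes compared, the replicate number as a block, an Xist term and each library left out. Each test was tried on simulated counts. Members and lists were chosen with earlier results of these data known. Genes were named by rule: core subunits, the highest and lowest member of each complex in each comparison with WT and in DF versus TF, paralogous pairs and the extremes of each list. Ndufa1, Ndufb11 and the members listed for shared reads or promoters outside that rule (such as Cox6a1, Cox6c and Uqcrh), and those named for the highest or lowest level of their complex, were chosen after their values were seen. A single further result that the rule would name is not reported here.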

Additional observations from a re-analysis of the deposited data

How the results depend on the processing

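With 2 TFD libraries and 3 of each other genotype, the counts of calls changed with gene-length scaling and with single libraries. Low genes such as Cox6b2 are the least certain at this depth.

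Members called in either direction numbered 31 in DF versus WT, 19 in TF versus WT, 3 in TFD versus WT and 0 in the other comparisons. With library totals 18 were called in DF versus WT. Loess on gene length gave 17 in DF versus WT and 5 in TFD versus WT, and medians of 0.080 in DF versus WT, 0.012 in TF versus WT, -0.11 in TFD versus DF, -0.050 in TFD versus TF and -0.077 in TFD versus the DF and TF average. DESeq2 gave 6, 4 and 5 in TFD versus DF, TF and the mean. Only the genotypes compared gave 1 in TFD versus WT and 2 in TFD versus DF, beside 23.1% and 1.11% of all genes. The Xist term gave 6 in TFD versus WT. Leaving out 1 library at a time gave 14 to 37 calls in DF versus WT, 9 to 30 in TF versus WT, 2 to 6 in TFD versus WT, 0 in DF versus TF, 0 to 14 in TFD versus DF, 0 to 5 in TFD versus TF and 0 to 8 in TFD versus the mean. The medians ran from 0.19 to 0.31, 0.19 to 0.29, -0.16 to 0.12, -0.07 to 0.05, -0.30 to -0.11, -0.34 to -0.10 and -0.32 to -0.10 in the same order. The number of all genes called also moved with the library left out, as given above for fits against WT. Chosen after seeing the data, leaving out TFD replicate 2 together with loess on length gave 19 calls (13 higher and 6 lower, with 37.5% of all genes called) and a median of 0.079 in DF versus WT, a median of 0.011 in TF versus WT, 5 calls in TFD versus WT (2 higher and 3 lower, with 19.0% of all genes called), and medians of -0.10, -0.062 and -0.070 in TFD versus DF, TF and the mean. The cause of these shifts was not tested beyond the settings themselves. RLE factors and no filter left every count within 1.5 times of these.

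The replicate number as a block gave 32 calls in DF versus WT, 20 in TF versus WT, 3 in TFD versus WT and 0 elsewhere, beside 36.9%, 34.2% and 22.4% of all genes in the first 3. The numbers pair no samples by the labels. Of 15 same-number pairs 3 had a correlation of deviations over 0.1 (-0.30 to 0.25), with a mean of 0.02 against -0.01 for other pairs. For 41 named members in 4 comparisons (164 results, 3280 values), each value was graded against the main fit, and 0 were graded as reversed. In DF versus WT 58 were graded weaker and 12 stronger, in TF versus WT 36 and 25, and in TFD versus WT 11 and 21. Against the mean of DF and TF, 9 TFD values were graded stronger. These grades do not mean that every sign held. The median of all members in TFD versus WT ran from -0.16 to 0.12 over the fits that left out a single library.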
